A study of Mus musculus with 12 samples.

Results

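Liver tumours from mice lacking the full Miz1 allele in hepatocytes were compared with tumours from floxed mice without Cre. The comparison takes the 3 libraries labelled Cre positive and the 3 labelled Cre negative on the Miz1fl/fl background, which are 6 of the 12 libraries of the series. It covers 20302 genes with a symbol among 21751 tested entries, the rest being 1426 unannotated loci and 23 symbols that a spreadsheet had turned into dates. All mice were C57BL/6 and carried the floxed allele. In the knockout group the albumin promoter drove Cre, so deletion was directed to hepatocytes and the other cells of a tumour keep the gene. Every animal of both groups had received diethylnitrosamine at 25 mg/kg in week 2 after birth and then carbon tetrachloride at 0.5 ml/kg each week, and tumours were taken at 5 months. Neither the number of mice sampled nor the deleted exons are stated in the labels. The p-values therefore measure only the spread between these libraries.

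Miz1, the product of Zbtb17, is a zinc finger transcription factor with a POZ domain. It activates some genes, including negative regulators of the cell cycle, and represses others when it is bound by Myc. Diethylnitrosamine is activated to a DNA-damaging agent in hepatocytes, and carbon tetrachloride causes repeated liver injury and regeneration.

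Zbtb17 (chromosome 4, 141444654 to 141467930, GRCm38) stood at 323, 306 and 302 normalised reads, that is, counts scaled by 1 size factor for each library, in floxed replicates 1 to 3 and at 261, 271 and 267 in knockout replicates 1 to 3. The groups did not overlap, and the knockout mean was 0.859 times the floxed mean. The log2 fold change, knockout minus floxed on the log2(value + 1) scale here and below, was -0.22 (SE 0.14). The exact two-sided permutation test gave p = 0.1, the smallest that 3 against 3 allows. The direction is that of the labels, but since the deleted exons are not stated, reads from exons that remain cannot be told apart from reads of intact transcripts.

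Libraries of the same group did not lie closer together than libraries of different groups. Over 11588 genes with a mean of at least 100 normalised reads, the root mean square log2 difference had a median of 0.757 in the 6 pairs within a group and 0.714 in the 9 pairs between groups. Floxed replicate 3 lay closer to knockout replicate 3 (0.390) and to knockout replicate 2 (0.428) than to either floxed library (0.691 and 0.757). Floxed replicate 1 lay closest to knockout replicate 1 (0.515). Floxed replicates 1 and 2 lay 1.17 apart and differed by at least 2-fold at 21.3% of these genes, whereas knockout replicates 2 and 3 did so at 1.89%.

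Component 1 of a principal component analysis held 66.9% of the variance and did not separate the genotypes. It ran from floxed replicate 2 at -0.66 to floxed replicate 1 and knockout replicate 1 at 0.46 and 0.52, with the other 3 libraries between -0.13 and -0.09. Component 3, with 7.48% of the variance, was the one on which every floxed library (0.24, 0.09 and -0.01) lay above every knockout library (-0.14, -0.12 and -0.07).

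**Figure D1:**
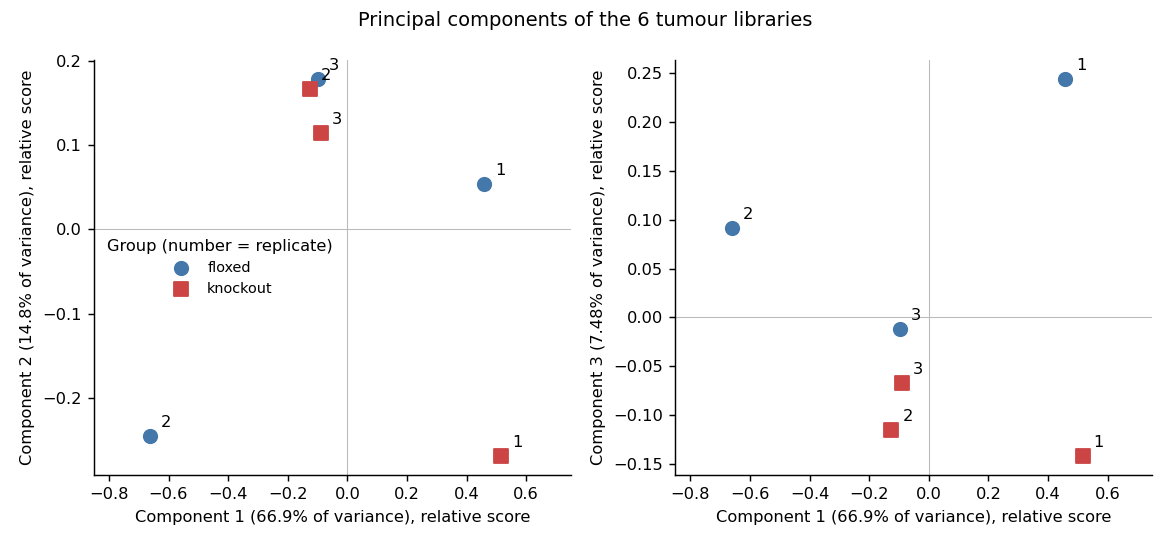
Relative scores of the 6 libraries on components 1 and 2 (left) and 1 and 3 (right), from genes with a mean of at least 100 normalised reads; digits are replicate numbers. Floxed replicate 2 sits alone at -0.66 on component 1, opposite floxed and knockout replicates 1, and the genotypes part only along component 3, which holds 7.48% of the variance.

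Genes at the high end of component 1 were Erich4, Gpc3, Cpe, Akr1c18, Cdh17, Spink1, Cacna1b and Vmn2r3. Gpc3, a cell-surface proteoglycan that marks liver cancer cells, stood at 11663, 30.3 and 6092 normalised reads across floxed and at 8481, 1483 and 10211 across knockout tumours. Cpe, which encodes carboxypeptidase E, stood at 6228, 11.9 and 4299 against 4707, 3489 and 3360.2. Cyp2b9, a cytochrome P450 gene named for its wide spread and not among those 8, stood at 11377, 25.97 and 9076 against 8546, 4228 and 7727. Floxed replicate 2 was far below the other 5 libraries at each of these genes, and the groups overlapped.

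The 8 genes at the other end were Mup7, Mup10, Mup11, Cyp4a10, Cyp4a14, Elovl3, Gtpbp4-ps1 and Ctcflos. Mup7, a major urinary protein secreted by the liver of male mice, stood at 9.59, 10464 and 5271 across floxed and at 10.8, 6374 and 2673 across knockout tumours. Elovl3, a fatty acid elongase, stood at 8.40, 4391 and 274 against 3.59, 1948 and 367. Floxed replicate 2 was the highest library for all 8 genes of this end, and a library numbered 1 was the lowest for all 8. Ddx3y, a gene of the Y chromosome, lay between 3479 and 4154 in each of the 6 libraries.

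**Figure D2:**
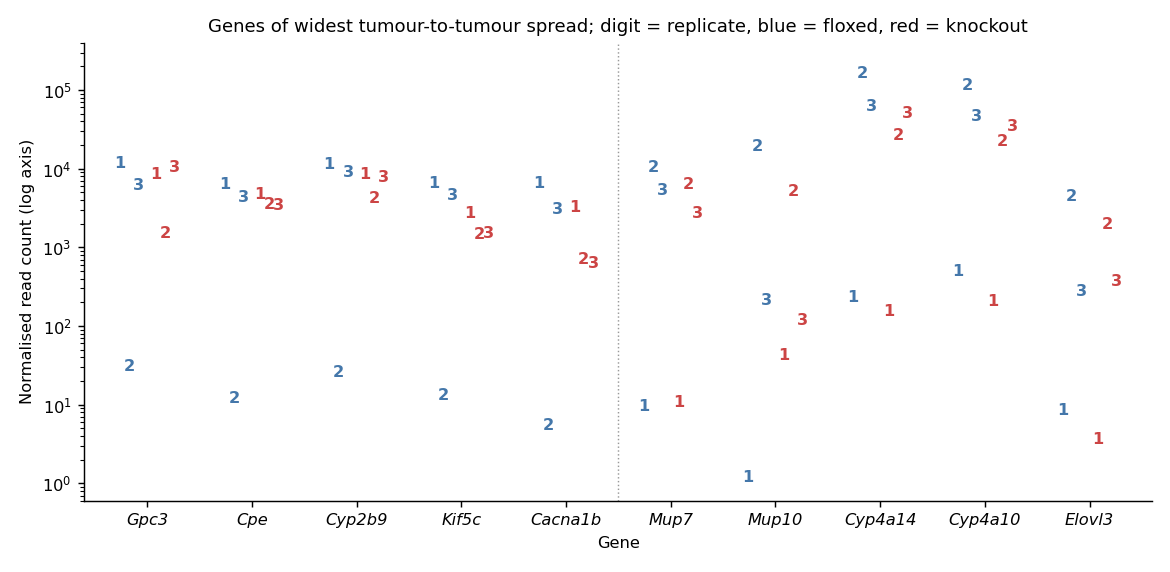
Normalised read count (log axis) in each of the 6 libraries for 10 genes named for wide spread; digits are replicate numbers, blue is floxed and red is knockout. Left of the dotted line floxed replicate 2 is the lowest library at every gene, such as Gpc3 at 30.3, and right of it floxed and knockout replicates 1 are the lowest at every gene.

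The library labelled floxed replicate 2 was low in genes that mark liver tumours. The summed level of 5 liver tumour markers (Afp, Gpc3, H19, Igf2 and Golm1) was 514 normalised reads in it, against 13073 and 37444 in the other floxed libraries and 3828 to 15222 in the knockout libraries. It was the lowest library for 4 of the 5 markers. All 6 hepatocyte markers, Alb and Hnf4a among them, were measured in every library, and their summed level was also lowest in floxed replicate 2, at 1860000 normalised reads against 3015800 to 5331500 in the other 5 libraries. Adipose and muscle markers were not in the table. Marker sums of B and plasma cells, T and NK cells, macrophages, neutrophils and stellate cells were each highest in knockout replicate 1. The neutrophil sum, from the 3 of 4 markers in the table, was 776 in that library. It was 110 and 77.7 in knockout replicates 2 and 3, within the floxed range of 49.5 to 278. The part of these markers in the results was not tested, and the main results are given with and without floxed replicate 2. In bulk tumour RNA, fewer cells of a type and less RNA per cell cannot be told apart.

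No gene passed the test over all entries. With limma and Benjamini-Hochberg adjustment the smallest adjusted p was 0.9998, so 0 of 20302 genes (0%) were called. At an unadjusted limma p under 0.05, 148 genes were higher in knockout tumours (0.729%) and 169 were lower (0.832%), 1.56% in all. With the replicate number as a block these counts were 500 (2.46%) and 516 (2.54%), with a smallest adjusted limma p of 0.908. DESeq2 on the reads recovered for 5 libraries called 5 entries, among them Ddit4, Ighg2c and Igkv10-96, while edgeR and limma-voom called 0 and had 172 and 138 genes at an unadjusted p under 0.05. Without floxed replicate 2, limma again called 0 and 392 genes had an unadjusted p under 0.05. Without floxed replicate 1 the latter count was 1190.

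Most differences were small, with 52.7% of genes above 0 and 47.3% below. The median absolute log2 fold change was 0.18, and 90% of genes lay between the 5th percentile of -0.63 and the 95th of 0.70. At least a 2-fold difference was seen at 493 genes higher (2.43%) and 363 lower (1.79%) in knockout tumours, 4.22% together. Of these 856 genes, 654 had a mean under 100 normalised reads, 326 had a within-group SD larger than their log2 fold change, and 219 had groups that did not overlap. Without floxed replicate 2, 415 of them were still past 2-fold and 77 had the opposite sign. Only 143 were past 2-fold in each of the 6 fits that left out 1 library.

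The spread between tumours sets what could have been seen. The median SE of a log2 fold change was 0.33. At that SE a gene had to differ 1.73-fold to reach an unadjusted p of 0.05, and 36.2-fold to reach it after multiplying by the number of entries. Such multiplying is stricter than the Benjamini-Hochberg adjustment used for the calls, under which a smaller difference can pass. The 3 floxed libraries alone spanned more than 2-fold at 7130 genes (35.1%), and the knockout libraries at 5991 (29.5%). For 10013 genes (49.3%) the 95% interval of the difference lay within 2-fold in either direction. That share was 0.765% for genes with a mean under 10 normalised reads, 21.4% from 10 to 100, 71.3% from 100 to 1000 and 79.1% above 1000.

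Complete separation of the groups was rare and usually narrow. The 3 knockout libraries lay above the 3 floxed libraries at 518 genes (2.55%) and below them at 624 (3.07%), 5.63% together. The median gap between the nearest libraries was 0.08 on the log2 scale, and 13 genes had a gap of at least 1. The genes named next were chosen for this gap, in each direction, at a mean of at least 50 normalised reads, so their separation is a description.

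Among the genes higher in knockout tumours, Dhrs9 had the widest gap. This short-chain dehydrogenase of retinoid and steroid metabolism (chromosome 2, 69380445 to 69404533) stood at 482, 243 and 481 normalised reads across floxed and at 1049.5, 1176 and 1008 across knockout tumours. The log2 fold change was 1.48 (SE 0.29), and it was 1.16 without floxed replicate 2. Wls, which carries Wnt proteins to the cell surface, stood at 278, 242 and 277 against 441, 750.3 and 445, a log2 fold change of 0.99 (SE 0.24). Its knockout libraries were spread by replicate 2, while the floxed libraries were close together.

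Regulators of transcription and of growth were among the others. Id3, an inhibitor of basic helix-loop-helix factors, stood at 491, 466 and 462 across floxed and at 915, 839 and 703 across knockout tumours, with a log2 fold change of 0.78 (SE 0.15). Nr4a1, an immediate-early orphan nuclear receptor, stood at 72.0, 67.1 and 69.7 against 216, 104 and 124, with a log2 fold change of 1.00 (SE 0.31). For both genes the floxed tumours were nearly alike and the knockout tumours ranged more widely. Aurka, a mitotic kinase, stood at 124, 113 and 92.9 against 169, 175 and 165 (log2 fold change 0.63, SE 0.19). Bid, a pro-apoptotic protein of the Bcl2 family, stood at 331, 301 and 351 against 476, 447 and 494 (log2 fold change 0.53, SE 0.14). The remaining genes of this set were Ighg1, Sybu, Camk2n2, St6galnac3, Alms1 and Ankmy2, with log2 fold changes from 0.32 for Alms1 to 1.68 for Ighg1.

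The widest gaps among the lower genes belonged to genes with 1 nearly silent library. Xlr3a, of an X-linked family (chromosome X, 73086293 to 73097095), stood at 1571, 169.9 and 149 across floxed and at 2.40, 49.4 and 36.0 across knockout tumours. Caln1, which encodes a calcium-binding protein, stood at 182, 295 and 382 against 2.40, 83.6 and 62.4. Knockout replicate 1 was the lowest library for both, and the log2 fold change of Caln1 was -3.39 (SE 1.21) with it and -1.91 without it. Knockout replicate 1 was also the lowest library for Fam47e, at 193, 196 and 276 against 20.4, 87.5 and 93.6.

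Further lower genes had a more even difference. Pln, which encodes the calcium pump regulator phospholamban, stood at 684, 817 and 701 across floxed and at 265, 426 and 419 across knockout tumours (log2 fold change -1.01, SE 0.22). Bmp2, a ligand that induces hepcidin in hepatocytes, stood at 747, 893 and 766 against 449, 551 and 554 (log2 fold change -0.63, SE 0.15). Setd4, a methyltransferase gene, stood at 548, 468 and 430.2 against 292, 236 and 239.9 (log2 fold change -0.91, SE 0.17). In each of these genes the floxed libraries lay close together. Slc26a10, Rasl10b and Phf11c completed the set with Per1, Ddit4 and Lpin1, described next.

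**Figure D3:**
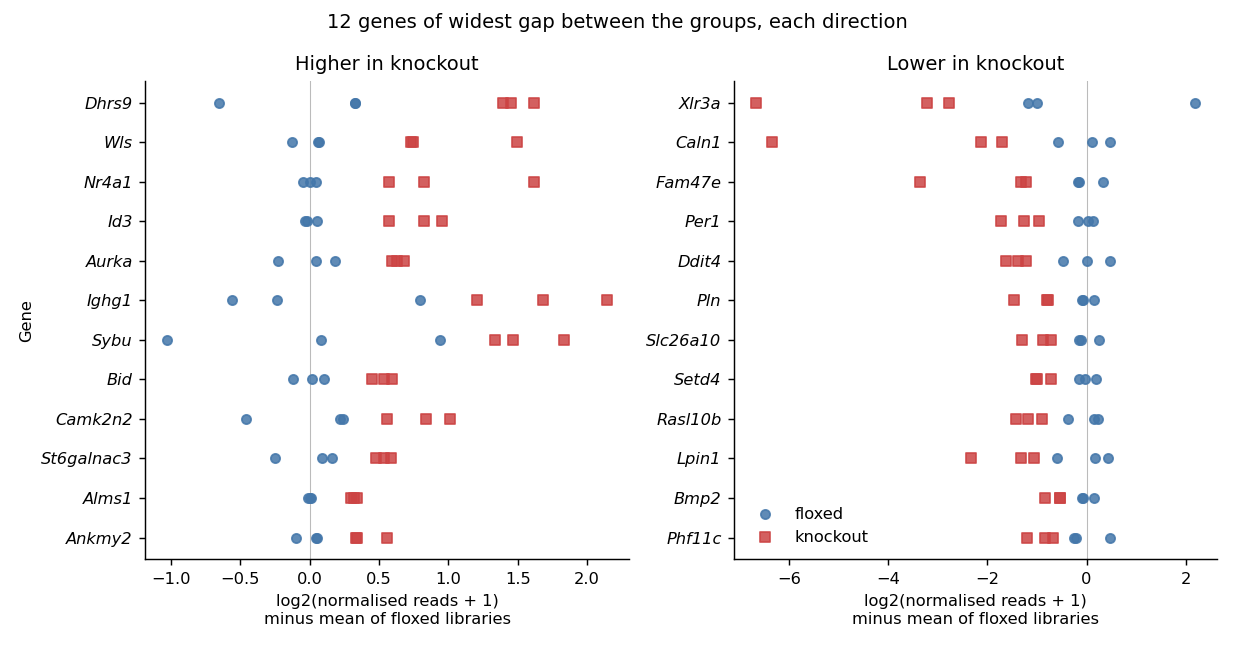
The 12 genes with the widest gap between groups in each direction; each point is 1 library, as log2(normalised reads + 1) minus the mean of the 3 floxed libraries, blue circles floxed and red squares knockout. Among the higher genes Dhrs9 has the widest gap, and among the lower genes knockout replicate 1 pulls Xlr3a, Caln1 and Fam47e far to the left.

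Per1, Ddit4 and Lpin1 are also known targets of the glucocorticoid receptor, which binds DNA after activation by corticosteroids and drives fasting and stress genes in the liver. Per1 (chromosome 11, 69095217 to 69109960) encodes a repressor of the circadian clock. It stood at 2138, 2457 and 2628 normalised reads across floxed and at 1229, 724 and 1005 across knockout tumours, with a log2 fold change of -1.32 (SE 0.22). Ddit4 (chromosome 10, 59949669 to 59951834), an inhibitor of mTORC1 signalling, stood at 889.9, 1215 and 629 against 377, 286 and 336, with a log2 fold change of -1.41 (SE 0.26). Lpin1 (chromosome 12, 16535669 to 16610966), a phosphatidate phosphatase and coactivator of fatty acid oxidation genes, stood at 10506, 21315 and 17920.0 against 3164, 7627 and 6322, with a log2 fold change of -1.57 (SE 0.41). All 3 knockout libraries were below all 3 floxed libraries for each gene.

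The promoters of these genes are shown because all 3 genes had separated groups and share a known regulator. Windows from 250 bases before to 50 after a transcription start were taken from RefSeq on GRCm38.p6, written 5′ to 3′ on the gene's strand. Capitals mark matches to CACGTG, the E-box bound by the clock factors, or to AGAACA or its reverse complement TGTTCT, a half-site of the glucocorticoid receptor. Both strands were searched, and the motifs do not overlap here.
Per1, start 1, chr11:69098699-69098998, plus strand: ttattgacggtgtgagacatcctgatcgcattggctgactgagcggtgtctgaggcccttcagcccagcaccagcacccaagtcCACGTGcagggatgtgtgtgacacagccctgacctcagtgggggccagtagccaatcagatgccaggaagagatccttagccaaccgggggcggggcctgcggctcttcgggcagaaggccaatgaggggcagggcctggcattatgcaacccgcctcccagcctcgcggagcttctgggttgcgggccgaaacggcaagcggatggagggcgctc
Ddit4, chr10:59951721-59952020, minus strand: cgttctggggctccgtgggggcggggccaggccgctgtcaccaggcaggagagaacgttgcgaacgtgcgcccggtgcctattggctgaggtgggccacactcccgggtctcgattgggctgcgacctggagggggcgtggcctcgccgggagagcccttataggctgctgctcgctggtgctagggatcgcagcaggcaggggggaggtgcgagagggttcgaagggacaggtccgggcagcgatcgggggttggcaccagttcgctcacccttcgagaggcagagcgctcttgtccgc
Lpin1, chr12:16610917-16611216, minus strand: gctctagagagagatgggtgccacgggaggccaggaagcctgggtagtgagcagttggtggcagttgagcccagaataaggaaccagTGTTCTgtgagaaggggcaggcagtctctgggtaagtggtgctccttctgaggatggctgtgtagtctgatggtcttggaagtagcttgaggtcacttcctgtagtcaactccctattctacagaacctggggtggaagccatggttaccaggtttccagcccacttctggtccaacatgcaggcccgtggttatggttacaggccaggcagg
Per1 start 1 held 1 E-box and Lpin1 held 1 of these half-sites, while the Ddit4 window and the window of a second Per1 start (chr11:69099902-69100201) held neither. Over all 32851 windows of this length, 7.15% held CACGTG and 18.97% held AGAACA on either strand. Of the 24 windows of the 15 list members with an entry, 4 held the E-box and 5 the half-site.

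The list of 18 glucocorticoid receptor targets was made with the low values of Per1 and Ddit4 known, so its counts are a description. Of its members, 15 were lower in knockout tumours and 6 did so without overlap (33.3%, against 3.07% of all genes), with a median log2 fold change of -0.54 against 0.02 over all genes. Without Per1 and Ddit4, 13 of 16 were lower, 4 without overlap, with a median of -0.49. Tsc22d3, an anti-inflammatory leucine zipper protein, stood at 2789.6, 6485 and 4295 across floxed and at 1427, 2674 and 2651 across knockout tumours (log2 fold change -0.98, SE 0.38). Cebpd, a transcription factor of the acute phase, stood at 219, 529 and 282 against 192, 115 and 164 (log2 fold change -1.05, SE 0.37). Errfi1, a feedback inhibitor of the EGF receptor, stood at 41227, 54121 and 45834 against 28232, 36715 and 37480.0 (log2 fold change -0.47, SE 0.22). Its knockout libraries stayed below the floxed ones despite the narrow difference. When 1 library was left out, 12 to 16 members were lower, with medians from -0.97 without floxed replicate 1 to -0.36 without knockout replicate 1. Sgk1, Dusp1 and Igfbp1 were the 3 members with a higher mean in knockout tumours.

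Across all entries, deviations from group means correlated between same-numbered libraries, so the differences were also read pair by pair. The labels do not say that equal numbers are pairs. Floxed replicate 2 and knockout replicate 3 correlated at 0.282, more than the libraries numbered 3 did with each other (0.118). The counts by pair and by block thus rest on an assumed pairing. Not every member moved with its number: for Ddit4 and Cebpd, replicate 2 was the highest floxed library and the lowest knockout library. The 6 members without overlap are lower in every possible pairing by construction, so the pair count is not separate from the overlap count. In 9 of the 18 members (50%) the knockout library was lower in all 3 same-numbered pairs, against 14.1% of all genes. With the replicate block, 8 were lower at an unadjusted limma p under 0.05, against 2.54%. Without Per1 and Ddit4, which had prompted the list, these counts were 7 and 6 of 16. Lpin1, also among the genes of widest gap, stayed in the 16, and the members were chosen with earlier results of these data known. The counts are thus a description. The median differences of the members were -0.39, -0.91 and -0.45 log2 in pairs 1, 2 and 3. Zbtb16, a zinc finger protein with the same kind of POZ domain as Miz1, illustrates the reading by number at 2646, 6539 and 5767 across floxed and 1768, 4873 and 4661 across knockout tumours. The groups overlapped, but each knockout library was below the floxed library of the same number. None of these genes passed adjustment over all entries with limma, with or without the block, and Ddit4 was called with DESeq2 on 5 libraries.

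Of 19 clock genes, which share Per1 with that list, 11 were lower in knockout tumours in all 3 same-numbered pairs, Arntl and Npas2 were higher in all 3, and the other 6 were mixed. The circadian clock is a transcriptional loop in which Arntl, with Clock or Npas2, activates Per and Cry genes and output factors such as Dbp and Tef, so levels depend on time of day. Dbp stood at 1516, 39.0 and 1198 normalised reads across floxed and at 794, 36.8 and 402 across knockout tumours. Arntl stood at 204, 1231 and 232 against 355, 1249.7 and 792. Both libraries numbered 2 were the lowest of their group for Dbp and the highest for Arntl, whichever their genotype.

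The 11 genes lower in every pair were 57.9% of the list, against 14.1% of all genes, and 11 were lower at an unadjusted limma p under 0.05 with the replicate block, against 2.54% of all genes. Without Per1 these counts were 10 and 10 of 18. This list was also chosen with earlier results of these data known, so its counts are a description. Without the block 2 of the 19 were lower at that p, against 0.832% of all genes. The median differences were -0.42, -0.36 and -0.57 log2 in pairs 1, 2 and 3, and the median log2 fold change stayed between -0.67 and -0.14 when 1 library was left out. Tef stood at 4711, 2071 and 5193 across floxed and at 2814, 1242 and 2815 across knockout tumours, and the log2 fold change was -0.79 (SE 0.47). Ciart, a repressor of the clock activators, stood at 218, 85.5 and 550.4 against 45.5, 41.8 and 98.4, with a log2 fold change of -1.91 (SE 0.70). Each of these was lower in every pair although the groups overlapped. Npas2 was opposite, at 78.0, 268 and 65.6 against 125, 492 and 425 (log2 fold change 1.41, SE 0.72). The hour of collection is not given in the labels, and its part in these values was not tested.

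**Figure D4:**
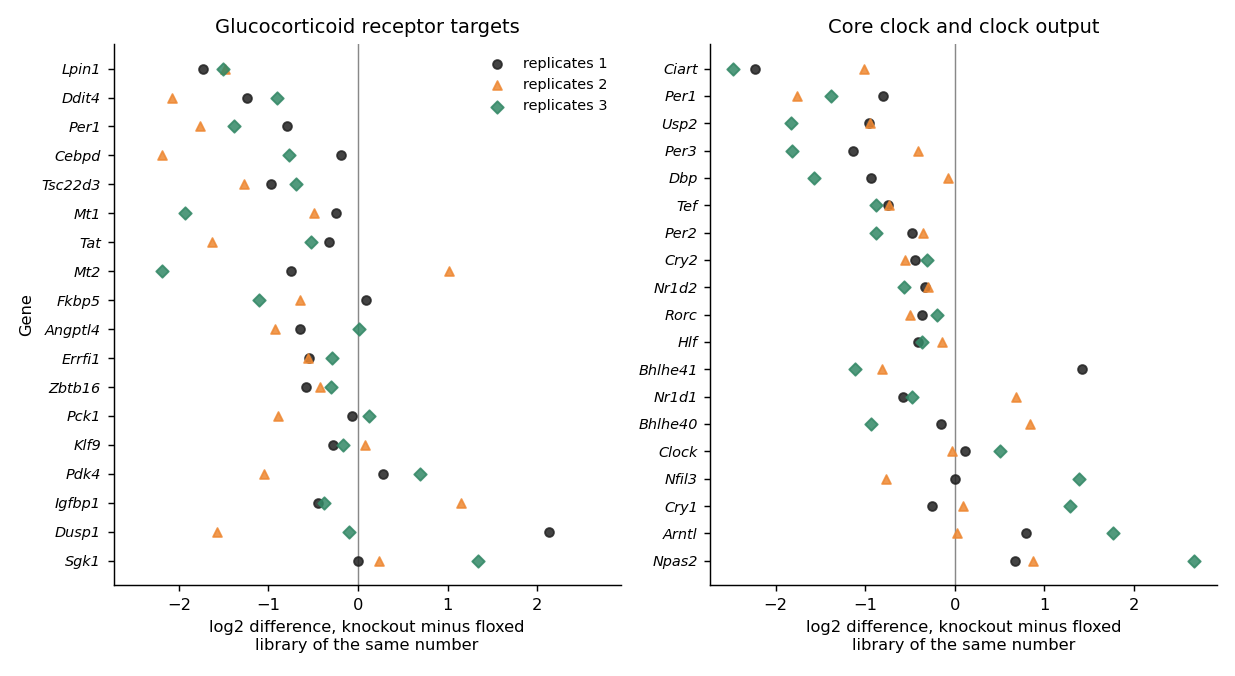
Difference in log2(normalised reads + 1) between the knockout and floxed library of the same number, for 18 glucocorticoid receptor targets (left) and 19 clock genes (right); black circles, orange triangles and green diamonds are replicates 1, 2 and 3. All 3 points lie left of 0 for 9 targets and for 11 clock genes, while Arntl and Npas2 lie to the right.

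Immunoglobulin chain genes, which mark B cells and plasma cells, were higher in knockout tumours. This family was picked after its values had been seen, so its counts are a description. Of 93 measured, 88 were higher, 28 of them without overlap (30.1%, against 2.55% of all genes), and the median log2 fold change was 1.44, or 0.83 without floxed replicate 2. Ighg2c, a heavy chain constant gene, stood at 33.6, 37.9 and 158 across floxed and at 236, 177 and 384 across knockout tumours (log2 fold change 2.09, SE 0.64). The summed level of 4 B and plasma cell markers was 127 to 652 in floxed and 379 to 1227 in knockout tumours. Those sums overlapped, and the highest was knockout replicate 1. These chains share sequence, so reads may be split between them.

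Genes of TNF and NF-kB signalling differed little at the median. Of 20 components from TNF receptor 1 to the NF-kB subunits, 17 were higher (52.7% of all genes were), with a median log2 fold change of 0.10. Single members ran from -0.40 to 0.68. Without floxed replicate 2 the count was 13, and without knockout replicate 1 it was 13 with a median of 0.02. For 15 of the 20 the 95% interval of the difference lay within 2-fold. Mtdh (chromosome 15, 34082694 to 34145624), which encodes metadherin and is named in the title of the series, stood at 3118, 3166 and 2723 across floxed and at 3341, 3546 and 3146 across knockout tumours. Its groups overlapped, its log2 fold change was 0.16 (SE 0.13, 95% interval -0.15 to 0.47), and the exact two-sided permutation p was 0.2. Ripk1, the kinase of the TNF receptor complex, was the 1 component of 20 whose knockout libraries all lay above the floxed ones, against 2.55% of all genes, at 917, 893 and 1012 against 1149, 1094 and 1066 (log2 fold change 0.23, SE 0.12).

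Families of protein production and turnover were among the least variable of the 51 lists from tumour to tumour. The median within-group SD was 0.16 log2 for 49 proteasome subunits and 0.17 for 30 splicing proteins of the SR and hnRNP classes. It was 0.17 for 56 translation initiation factors and 0.19 for 77 mitochondrial ribosomal proteins, against 0.39 for all genes. This SD fell with level, from 0.73 for genes with a mean under 10 normalised reads to 0.28 from 100 to 1000 and 0.23 above 1000. The part of level in the family values was not tested. For 75 of the 77 mitochondrial ribosomal proteins, 29 of the 30 splicing proteins and 19 of 20 aminoacyl-tRNA synthetases the 95% interval lay within 2-fold. That share was 49.3% over all genes, 71.3% for those with a mean from 100 to 1000 and 79.1% above 1000. Mitochondrial ribosomal proteins were higher in knockout tumours for 59 of 77, with a median of 0.06, which ran from 0.02 without floxed replicate 3 to 0.16 without floxed replicate 1. Among single genes, Pcgf3, a Polycomb group RING finger protein, had one of the narrowest intervals. It stood at 1577, 1611 and 1540.2 across floxed and at 1528, 1511 and 1509 across knockout tumours. Psma8, a proteasome subunit of the testis, was the exception in its family at 423, 24.9 and 179.8 against 14.4, 22.8 and 21.6 (log2 fold change -2.64, SE 0.98).

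Zinc finger genes carrying the Zfp stem showed a small shift that depended on floxed replicate 1. Of 341 measured, 207 were higher in knockout tumours, against 52.7% of all genes, with 26 not overlapping upward (7.62%, against 2.55% of all genes) and 7 downward (2.05%, against 3.07%). The median log2 fold change was 0.05, and it stayed between 0.01 and 0.07 when 1 library was left out. Without floxed replicate 1, 176 of the 341 were higher, beside 10306 of all 20302 genes. At an unadjusted limma p under 0.05, 2 were higher and 1 lower, against 0.729% and 0.832% of all genes. With the replicate block these were 3 (0.88%) and 2 (0.59%), against 2.46% and 2.54%. Zfp758 stood at 267, 237 and 291 across floxed and at 413, 366 and 308 across knockout tumours (log2 fold change 0.44, SE 0.18). Zfp951 was among the 7, with a log2 fold change of -1.01 (SE 0.38).

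Some metabolic and secretory families of the hepatocyte were spread widely and others were not. The median within-group SD was 2.65 log2 for 17 major urinary proteins, 1.49 for 6 Slco transporters and 1.48 for 16 carboxylesterases, but 0.39 for 16 aldo-keto reductases and 0.43 for 43 ABC transporters. The 5 globins, genes of red blood cells, had 1.90. Of the major urinary proteins 5 were higher in knockout tumours, but 14 were without floxed replicate 2, and the median log2 fold change ran from -2.12 without floxed replicate 1 to 1.17 without knockout replicate 1. Their direction thus turned on single libraries. Some single metabolic genes, named for a small p within their lists, differed more evenly. Slc37a4, the glucose-6-phosphate transporter of the endoplasmic reticulum, stood at 3949, 4866 and 3843 across floxed and at 2987, 2025 and 2427 across knockout tumours (log2 fold change -0.78, SE 0.19). Abcc2, which exports bilirubin conjugates into bile, and Aldh1l1, a folate enzyme, had log2 fold changes of -0.44 (SE 0.21) and -0.45 (SE 0.19). All 3 were without overlap, and the unadjusted limma p was 0.0054 for Slc37a4, 0.077 for Abcc2 and 0.055 for Aldh1l1. In their lists, 6 of 259 solute carriers (2.32%) and 1 of 43 ABC transporters (2.33%) were lower without overlap. Of 20 aldehyde dehydrogenases 2 were (10%), against 3.07% of all genes.

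For several families of the cytoskeleton and cell surface the counts turned on single libraries. Keratins were higher in knockout tumours for 10 of 11 and tubulins for 14 of 16, yet without floxed replicate 2 the counts were 3 and 6. Without knockout replicate 1 they were 3 and 10, with a keratin median of -0.33 against 0.36 with all libraries. Annexins went from 9 of 12 to 5 without floxed replicate 2 and to 6 without knockout replicate 1, and tetraspanins from 11 of 18 to 6 without floxed replicate 2. The V-ATPase and ephrin lists, by contrast, kept a median above 0 in all 6 fits without 1 library. The median of all genes also did, at 0.004 to 0.021. V-ATPase subunits, which acidify lysosomes, were higher for 16 of 18 with a median of 0.20. Without floxed replicate 2 the count was 16 with a median of 0.12, and without knockout replicate 2 it was 11 with a median of 0.10. Ephrins and their receptors were higher for 14 of 16, for 12 without floxed replicate 2 and for 10 without knockout replicate 1. In same-numbered libraries 1, 2 and 3 the median differences were 0.009, 0.58 and 0.0009 log2 for V-ATPase subunits. They were 0.48, -0.05 and 0.18 for ephrins and their receptors. Ephb6, a receptor of that family that lacks kinase activity, stood at 7.20, 17.3 and 16.2 against 41.9, 27.9 and 35.5 (log2 fold change 1.38, SE 0.42). Over all 51 lists, the median kept its sign in all 6 fits without 1 library for 14 lists above 0 and 5 below, and it turned in 32.

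**Figure D5:**
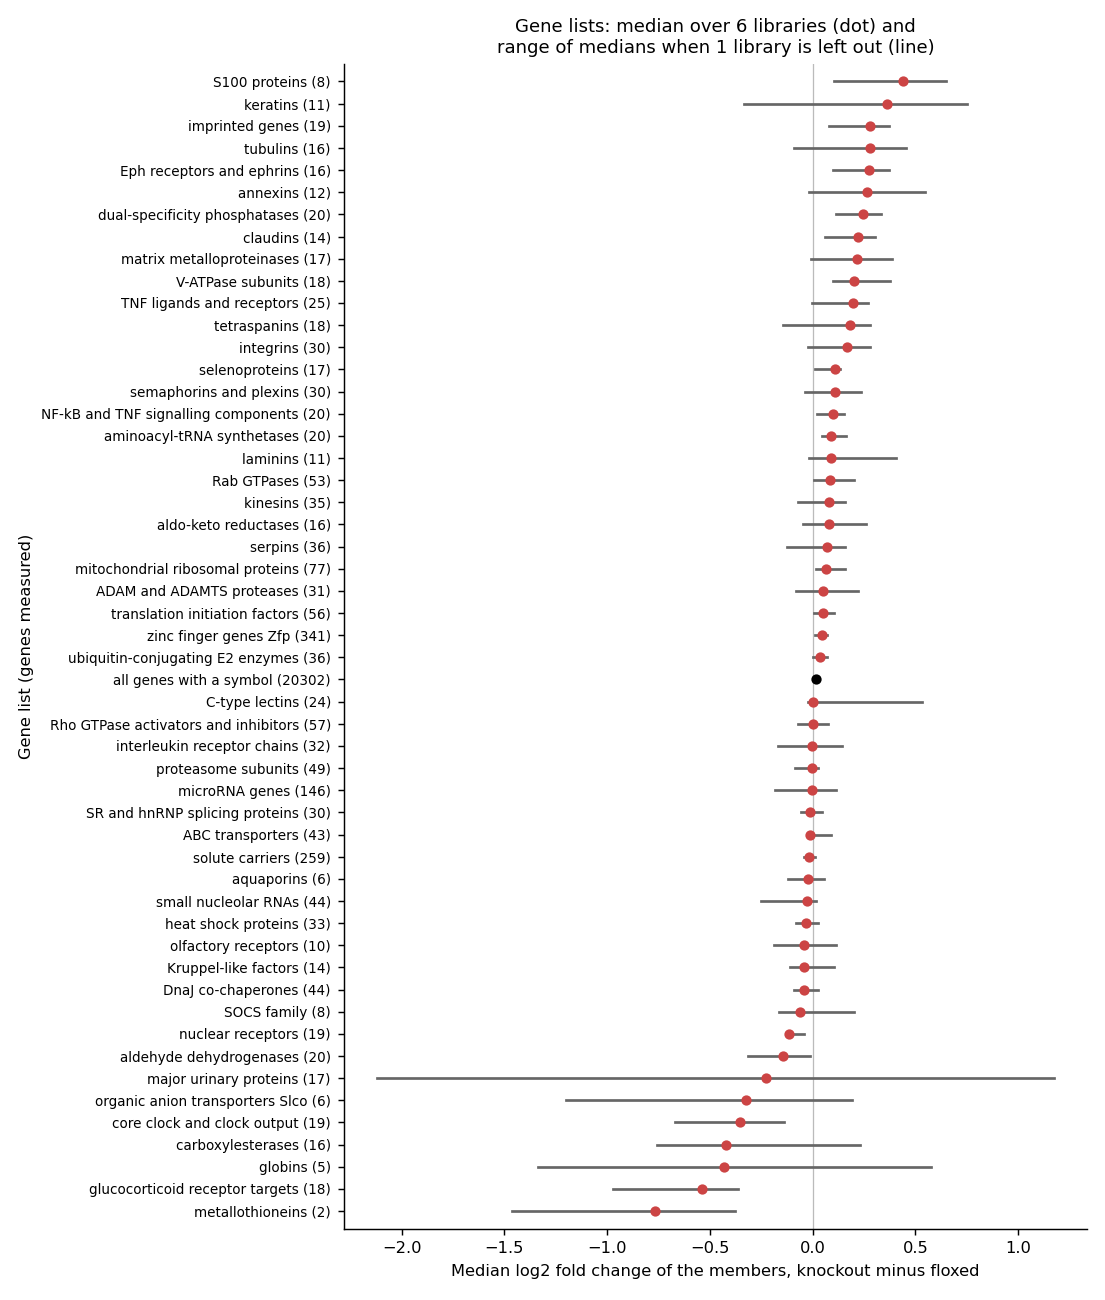
Median log2 fold change of the members of each of 51 gene lists and of all genes (black), with a line from the lowest to the highest median when 1 library is left out; numbers in brackets are genes measured. The major urinary proteins swing from -2.12 to 1.17, while glucocorticoid receptor targets and clock genes stay below 0.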

How the data were processed

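RNA of 6 tumour libraries, in 2 groups of 3 by genotype in the labels, was read from a table deposited by the authors as a signal per gene, which is a read count divided by 1 factor per library. Values above 0 came out as whole reads for 100% of entries in 5 columns (tolerance 0.01 reads); reads are not claimed for floxed replicate 3. The recovered reads in genes number 30151743 to 76122969. Entries for reads in no gene, left out of tests, hold 38.0% to 50.8% of the column sums. Per the submitters' processing notes, the mm10 build was used with DESeq2 1.16.1, edgeR 3.18.1, RSEM 1.1.17, Bowtie2 2.2.6, Trimmomatic 0.36 and bcl2fastq 2.19.0, with no role or order stated.

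All 21751 entries had a mean of at least 1 and entered a limma fit (version 3.58.1 in R 4.3.3, moderated with a trend) of log2(value + 1), a scale that understates changes of low genes. P-values were adjusted by Benjamini-Hochberg and called under 0.05. This replaces a count test because the values are not raw counts. Error values are moderated SEs. edgeR 4.0.16, DESeq2 1.42.0 and limma-voom were run on the reads recovered for 5 libraries. The limma script was tested on simulated data.

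The titles number the libraries, and deviations from group means correlated between libraries of the same number (0.489, 0.339 and 0.118 across entries). Differently numbered libraries correlated from -0.427 to 0.282, the highest being floxed replicate 2 with knockout replicate 3. Every same-numbered value was above 0.1, so a fit with a replicate block is given where it changes a count. The members and the 51 gene lists were chosen with earlier results of these data known. The text draws its genes from the 12 of widest gap in each direction (mean of at least 50), up to 3 of smallest p in each list, those of widest spread or narrowest interval (mean of at least 1000), the 8 at each end of component 1, Zbtb17 and Mtdh. Other genes named were chosen after their values were seen: members of the glucocorticoid receptor, clock, marker and immunoglobulin lists, and Ddx3y. GENCODE M21 (GRCm38, the same as mm10) gave the coordinates, which count from 1. Promoters came from RefSeq. Alternatives were other pseudocounts, filters and scalings, robust moderation, the block, and leaving out libraries. Figures were drawn with matplotlib 3.10.9.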

Additional observations from a re-analysis of the deposited data

How the results depend on the processing

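The count of genes called at an adjusted p under 0.05 was 0 under every alternative run except DESeq2 on recovered reads, which called 5. Leaving out 1 library at a time gave 206 to 1190 genes at an unadjusted limma p under 0.05 (highest without floxed replicate 1, lowest without floxed replicate 3), 895 to 2003 past 2-fold, 1010 to 2912 without overlap upward and 1138 to 2773 downward; fewer libraries make separation easier by construction. Leaving out both libraries numbered 1, 2 or 3 gave 3886, 1990 and 1760 genes without overlap upward and 3965, 2238 and 1974 downward. Without both libraries numbered 1 or both numbered 3, 1187 and 134 genes had an unadjusted limma p under 0.05 and 1504 and 1632 were past 2-fold, and 10374 and 5325 had an interval within 2-fold. The replicate block gave 1016 genes at an unadjusted limma p under 0.05, against 317. On the 5 libraries without floxed replicate 3, edgeR gave 172 genes at an unadjusted p under 0.05 and limma-voom 138. Limma without that library gave 206. Pairing by the block changed no call at an adjusted p under 0.05. A pseudocount of 8 left 286 genes past 2-fold. Scaling to equal column sums gave 981 genes without overlap upward and 275 downward, and 207 higher against 88 lower at an unadjusted limma p under 0.05, in place of 148 against 169; the cause was not tested. With that scaling and with quantile scaling the splicing proteins turned from 13 to 23 and 20 of 30 higher. Array quality weights did not converge and are not given. The log2 fold changes printed for single genes in the text kept their sign in all alternatives run. That does not extend to genes given only by their values per library, such as Gpc3, Cpe and Mup7, where floxed replicate 2 stands apart. The medians of 32 of the 51 lists turned sign in at least 1 fit without 1 library. Below a mean of 10 normalised reads, 0.765% of genes had an interval within 2-fold.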
